A study of Mus musculus with 45 samples.

Results

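The 7 genes described here, H2-Aa, H2-Ab1, H2-Eb1, H2-DMa, H2-DMb1, Cd74 and Ciita, encode the machinery with which a cell displays peptides on major histocompatibility complex (MHC) class II molecules. They were selected by symbol from the 24422 genes of a uterine RNA-seq table, and for how their levels were spread over tissues and individual mice. Those levels are therefore described without a test, and tests are given for the genotype comparison alone. The mice were sexually mature CD-1 females, an outbred stock, and were either wildtype (WT) or Plag1 knockout (KO). WT and KO females alike had been superovulated with 5 IU of pregnant mare serum and, 2 days later, 5 IU of human chorionic gonadotropin, and their uteri were taken on the day after. The methods describe mating of superovulated females with WT males, except where oocytes were collected. Which of these mice had been mated was not among their labels. Each of 14 mice, 7 per genotype, gave 3 tissues. These were the whole horn wall (uterus), its mucosa (endometrium) and its muscle layer (myometrium), the last pair separated with a scalpel. The question was whether Plag1, a zinc finger transcription factor gene, affected the maternal uterus.

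The 45 libraries held between 256298 and 1222627 gene counts each, and levels are given in CPM, the count of a gene scaled by the summed gene counts of its sample. Libraries with the same mouse and tissue in their labels, 3 for endometrium of KO mouse 13 and 2 for myometrium of WT mouse 12, were taken as repeats and summed to give 42 samples, in which 3 counts corresponded to 1.23 to 11.7 CPM. Plag1 itself had at most 1 count in any library of either genotype, so the table gave no check of the genotype labels. The summed level of 4 epithelial markers was 708 to 2284 CPM in endometrium and 52.3 to 576 CPM in myometrium. Smooth muscle markers summed to 8099 to 25042 CPM in myometrium and to 187 to 8082 CPM in endometrium, so the highest mucosa sample came close to the lowest muscle sample. Apart from repeat libraries, each tissue lay in plate rows of its own, and tissue and plate row cannot be told apart.

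MHC class II molecules are pairs of an alpha and a beta chain that present peptides from endocytosed proteins to CD4+ T cells. H2-Aa and H2-Ab1 encode the alpha and beta chains of the I-A molecule, and H2-Eb1 encodes the beta chain of the I-E molecule. The invariant chain Cd74 guides new class II molecules to endosomes, where H2-DMa and H2-DMb1 form the H2-DM heterodimer that exchanges a fragment of Cd74 for peptide. Ciita is the transactivator that class II genes require. Dendritic cells, macrophages and B cells express the set constitutively, other cells can be induced by interferon gamma, and the chain genes are among the most polymorphic of the mouse genome.

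On the mm9 (NCBIM37) assembly, H2-DMa (chr17:34272127-34276046), H2-DMb1 (chr17:34290017-34297168), H2-Ab1 (chr17:34400154-34406363), H2-Aa (chr17:34406276-34424772) and H2-Eb1 (chr17:34442828-34453144) were annotated within a single MHC interval, H2-Aa on the minus strand and the others on the plus strand. The annotated ends of H2-Ab1 and H2-Aa overlapped by 88 bases on opposite strands. Whether strand was used in counting was not given in the sources used here, so the assignment of any counts within the overlap is uncertain. This overlap lay at the ends of both genes away from their start sites, whereas the library method reads transcript starts.

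Class II promoters are known for an X box, bound by the RFX complex, and downstream of it a Y box, bound by NF-Y, on which Ciita assembles. RefSeq promoter windows were matched for 4 of the 7 genes, H2-Aa, H2-Eb1, H2-DMa and H2-DMb1. The sequences below set the promoter of H2-Eb1, the gene that varied most between mice, beside those of H2-DMb1 and H2-Aa, which share letters with it. Each is the 250 bases before the start site, 5′ to 3′ on the gene's strand, at chr17:34305617-34305866 (plus), chr17:34152941-34153190 (plus) and chr17:34287824-34288073 (minus) on GRCm38.p6. Capitals mark TGATTGG, letters of the Y box, and AACTGATGATGCT, the longest run shared by the windows of H2-Eb1 and H2-DMb1. Both were chosen after the windows had been read.
H2-Eb1: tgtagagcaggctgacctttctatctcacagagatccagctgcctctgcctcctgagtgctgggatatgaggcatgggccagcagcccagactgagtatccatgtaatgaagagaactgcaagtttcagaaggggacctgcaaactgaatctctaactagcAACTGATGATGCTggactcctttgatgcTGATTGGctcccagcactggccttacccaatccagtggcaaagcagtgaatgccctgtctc
H2-DMb1: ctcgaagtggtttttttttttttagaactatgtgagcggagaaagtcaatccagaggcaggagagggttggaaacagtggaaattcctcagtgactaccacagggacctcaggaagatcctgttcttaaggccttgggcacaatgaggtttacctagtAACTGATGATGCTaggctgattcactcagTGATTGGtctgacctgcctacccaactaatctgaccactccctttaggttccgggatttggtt
H2-Aa: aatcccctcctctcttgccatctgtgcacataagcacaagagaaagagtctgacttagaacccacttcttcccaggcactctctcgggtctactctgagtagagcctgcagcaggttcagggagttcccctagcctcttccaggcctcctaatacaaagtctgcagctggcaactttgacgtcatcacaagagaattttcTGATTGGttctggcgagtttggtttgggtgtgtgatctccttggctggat
Searched on both strands, TGATTGG occurred in 7.82% of 32851 promoter windows of 300 bases, the shared run in 3 windows (0.00913%) and both in 2 windows, those of H2-Eb1 and H2-DMb1. There the shared run came first, with 15 bases to the Y box letters in H2-Eb1 and 16 in H2-DMb1, and the runs did not overlap. The H2-Aa window held TGATTGG, centred 47 bases before the start. The 2 windows of H2-DMa held neither run of letters.

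The I-A chain genes were detected in every sample. H2-Ab1 in WT uterus ranged from 221 to 1201 CPM with a median of 442, and in KO uterus from 188 to 515 CPM with a median of 390.1. In endometrium its median was 377 CPM in WT (56.7 to 936) and 301 CPM in KO (160.0 to 1097). In myometrium its median was 280.2 CPM in WT (111 to 295) and 237 CPM in KO (169 to 477). The genotypes overlapped in each tissue, and the lowest value of the 42 came from the endometrium of WT mouse 5, with 17 counts. H2-Aa, its partner chain, had a median of 102 CPM in WT uterus (27.4 to 226) and 93.6 CPM in KO uterus (46.3 to 153). Its medians were 182 CPM (77.8 to 272) and 148 CPM (66.2 to 450.5) in the endometrium of WT and KO mice. In myometrium WT mice had 43.2 to 142 CPM (median 92.9) and KO mice 89.7 to 209.7 CPM (median 116). H2-Aa was thus highest in scraped mucosa. These are bulk samples, in which fewer cells of a type and less RNA per cell cannot be told apart.

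H2-Eb1, the I-E beta chain, was spread more widely among WT than among KO mice on the log2 scale. In uterus the WT mice 1, 3, 5, 7, 8, 10 and 12 had 185, 36.3, 90.5, 2.45, 177, 78.2 and 3.86 CPM. In endometrium the same mice had 176, 45.6, 93.3, 6.50, 116, 59.1 and 2.57 CPM. In myometrium they had 147, 34.5, 65.7, 0, 62.0, 57.1 and 4.17 CPM. Mice 7 and 12 were the lowest pair in all 3 tissues, and mouse 1 was highest or next to highest. KO mice ranged from 28.0 to 138 CPM in uterus (median 99.8), from 50.2 to 205 CPM in endometrium (median 122) and from 47.7 to 164 CPM in myometrium (median 97.1). No KO mouse lay near mice 7 and 12, and the other 5 WT mice overlapped the KO range in each tissue.

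Cd74, the invariant chain gene on chr18 (60963502 to 60972300, mm9, plus strand, overlapping the model AC139759.1), varied with H2-Ab1. Its median in uterus was 697 CPM in WT (468 to 1555) and 539 CPM in KO (257 to 822). In endometrium it was 466 CPM in WT (107 to 1193) and 464 CPM in KO (324 to 1480), and in myometrium 356 CPM in WT (206 to 523) and 308 CPM in KO (210.0 to 836). WT mouse 5 again gave the lowest endometrium and KO mouse 9 the highest. Across the 42 samples, after subtraction of the group means, Cd74 and H2-Ab1 had a Pearson r of 0.91 on the log2(CPM + 1) scale. H2-Aa had r = 0.75 with H2-Ab1 and 0.72 with Cd74. H2-Eb1 had r = -0.09 with H2-Ab1 and 0.07 with H2-Aa, values that were 0.27 and 0.45 over the 36 samples without mice 7 and 12. H2-DMb1, which had few counts, was also weakly correlated, at 0.25 with H2-Ab1 and -0.00 with H2-Aa. These correlations describe samples that share mice and libraries.

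The peptide-loading genes were counted less often, with 8.62 to 62.5 CPM for H2-DMa and 0 to 29.6 CPM for H2-DMb1 over the 42 samples. H2-DMa had a median of 32.9 CPM in WT uterus (24.7 to 55.0) and 28.0 CPM in KO uterus (14.2 to 42.6). In endometrium the medians were 26.0 CPM in WT and 32.5 CPM in KO, and in myometrium 18.0 and 19.7 CPM. H2-DMb1 had medians of 12.2 and 9.01 CPM in WT and KO uterus, 11.6 and 15.7 CPM in endometrium and 5.18 and 6.45 CPM in myometrium. In myometrium 8 of 14 samples held 3 or fewer counts of H2-DMb1, so its level there was close to what the depth could show. Ciita, the transactivator (chr16:10480237-10527657, mm9, plus strand), was at 0 to 13 counts per sample, with 3 or fewer counts in 9 of 14 uterus, 9 of 14 endometrium and 12 of 14 myometrium samples. Its group medians lay between 2.82 and 4.93 CPM, near the limit of detection.

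**Figure D1:**
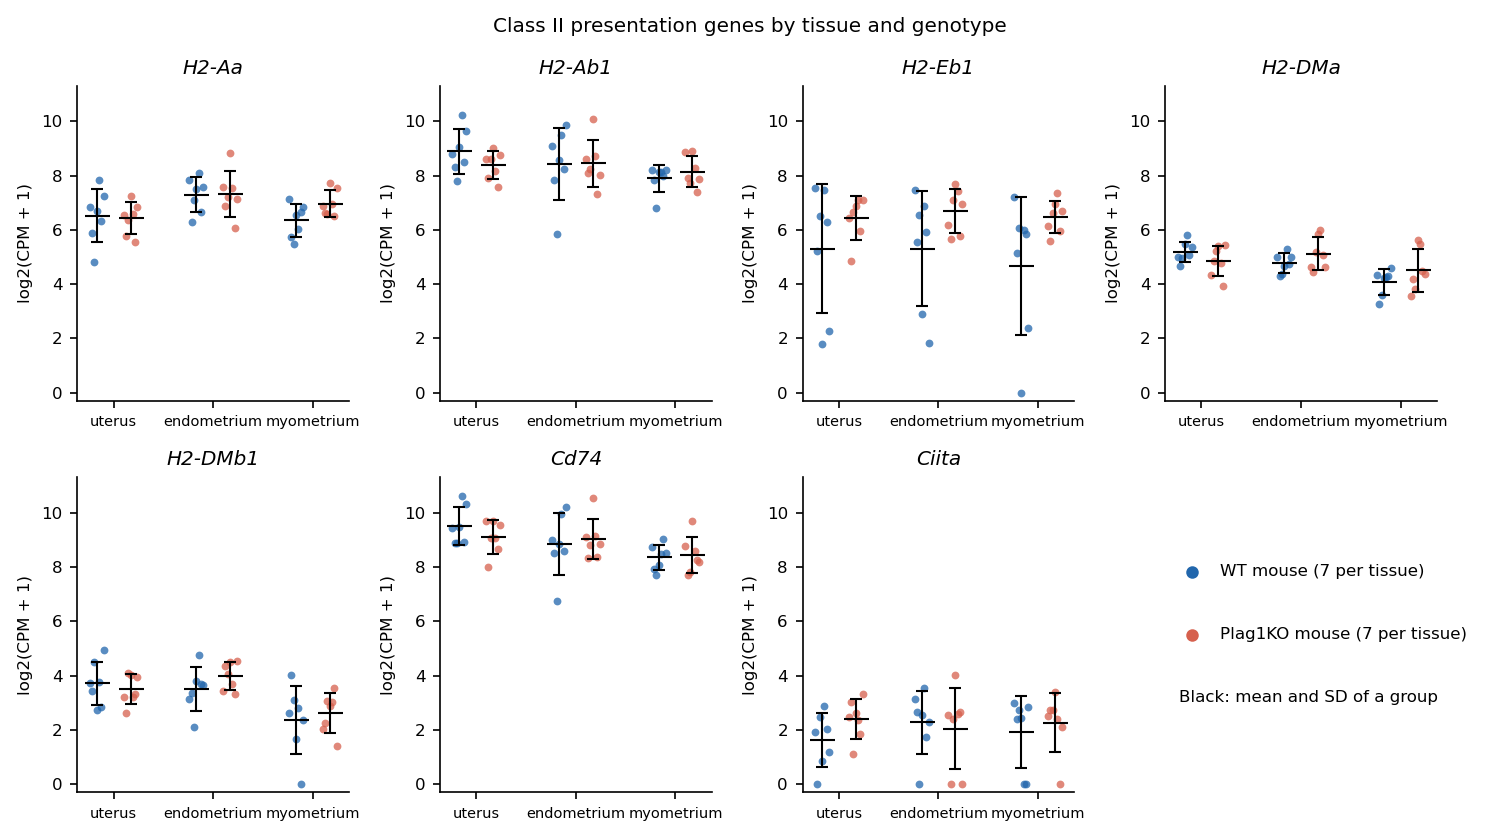
Each panel plots a gene in log2(CPM + 1) for the 3 tissues, with a point per mouse (blue WT, red Plag1KO, 7 each) and the group mean and SD in black. The genotypes overlap in every panel, and WT H2-Eb1 has the widest bars because 2 WT mice lie far below the rest.

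Most of the class II genes were higher in endometrium than in myometrium. The edgeR log2 fold change of endometrium over myometrium, with genotype in the fit, was 1.24 ± 0.34 (SE, n = 14 mice) for H2-DMb1, 0.59 ± 0.21 for H2-Aa and 0.57 ± 0.25 for Cd74. It was 0.54 ± 0.25 for H2-Ab1 and 0.53 ± 0.22 for H2-DMa. H2-Eb1 was at 0.16 ± 0.38 and Ciita at 0.11 ± 0.45. These errors leave out that both layers came from the same mice. With a mouse block H2-DMb1 was at 1.22, H2-DMa at 0.57, H2-Aa at 0.55 and Cd74 at 0.47. H2-Ab1 was at 0.36 in that fit, H2-Eb1 at 0.20 and Ciita at 0.06. The median of the 7 genes was 0.54, against 0.03 over all 14314 genes in the fit. H2-DMa was higher in endometrium in 14 of 14 mice, a pattern of 3.18% of 14822 genes. Cd74 and H2-Eb1 were higher there in 12 mice and H2-Aa and H2-DMb1 in 11, and 17.2% of genes had endometrium above myometrium in at least 11 of 14 mice. H2-Ab1 was higher in 10 mice and Ciita in 9.

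Markers of leukocytes shifted in the same direction. All 5 leukocyte markers were above 0 in that comparison, with a median log2 fold change of 0.96, and their summed level was 143 to 558 CPM in endometrium and 95.5 to 239 CPM in myometrium. Of 8 macrophage markers 5 were above 0 (median 0.50), and the list summed to 250.0 to 951 CPM in endometrium and 219.8 to 436 CPM in myometrium. Of the 6 dendritic cell markers that were measured only 1 was above 0 (median -0.55), with sums of 3.25 to 30.9 CPM in endometrium and 12.9 to 26.6 CPM in myometrium. The part of cell number in the layer difference was not tested.

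The remaining genes of the pathway differed by step. Among 7 measured genes of antigen processing, 6 were above 0 in endometrium over myometrium with a median of 1.24. The lysosomal proteases Ctsb (1.99 ± 0.19), Ctsd (1.61 ± 0.22) and Ctsl (0.67 ± 0.21) are named for their mean CPM. All 9 class I presentation genes were above 0 with a median of 0.40, B2m, the class I light chain, at 0.42 ± 0.20. The 9 class II regulators split 5 above and 4 below 0 (median 0.13), with Rfxank, a subunit of RFX, at -0.73 ± 0.25 and the NF-Y subunits Nfyc and Nfyb at 0.38 ± 0.23 and 0.59 ± 0.24. Of 6 measured interferon gamma genes 4 were above 0 (median 0.44). Ifng itself was at 0 in every mouse of 4 of the 6 groups.

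Whole uterus did not lie between its layers for each gene. H2-Aa was lower in uterus than in endometrium in 14 of 14 mice, a pattern of 1.02% of genes, and was above myometrium in 4 mice. H2-Ab1 and Cd74 were above myometrium in 12 of 14 mice, and Cd74 was above endometrium in 11. The count ratio of H2-Aa to H2-Ab1, which cancels depth, accordingly had a median of 0.221 in uterus (0.124 to 0.333), 0.421 in endometrium (0.201 to 2.41) and 0.401 in myometrium (0.229 to 0.790). The value of 2.41 came from WT mouse 5, with 41 counts of H2-Aa and 17 of H2-Ab1. In repeat libraries the same ratio was 0.559, 0.366 and 0.329 for the endometrium of KO mouse 13, and 0.259 and 0.534 for the myometrium of WT mouse 12. The 2 libraries of mouse 12 thus differed by more than the medians of uterus and endometrium did.

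The share of variation that lay between mice was larger for the chain genes than for most genes. For each gene the share of the sum of squares within tissues that lay between mice was taken on the log2(CPM + 1) scale, where a gene without a mouse effect would have 33.3% and the median of 14822 genes was 36.4%. H2-Eb1 had 95.6%, which ranked 3 of all genes behind Gapdh (97.0%) and Cd200 (96.6%). H2-Ab1 had 76.0%, Cd74 72.3%, H2-Aa 71.7% and H2-DMa 61.6%, with H2-DMa, the lowest of these, at percentile 94.8 of genes. H2-DMb1, at 32.6%, and Ciita, at 21.9%, lay below the median of all genes, and both had few counts. The median of the 7 genes was 71.7%. The 9 class I presentation genes ranged from 33.0% for the heavy chain H2-D1 to 70.3% for B2m.

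**Figure D2:**
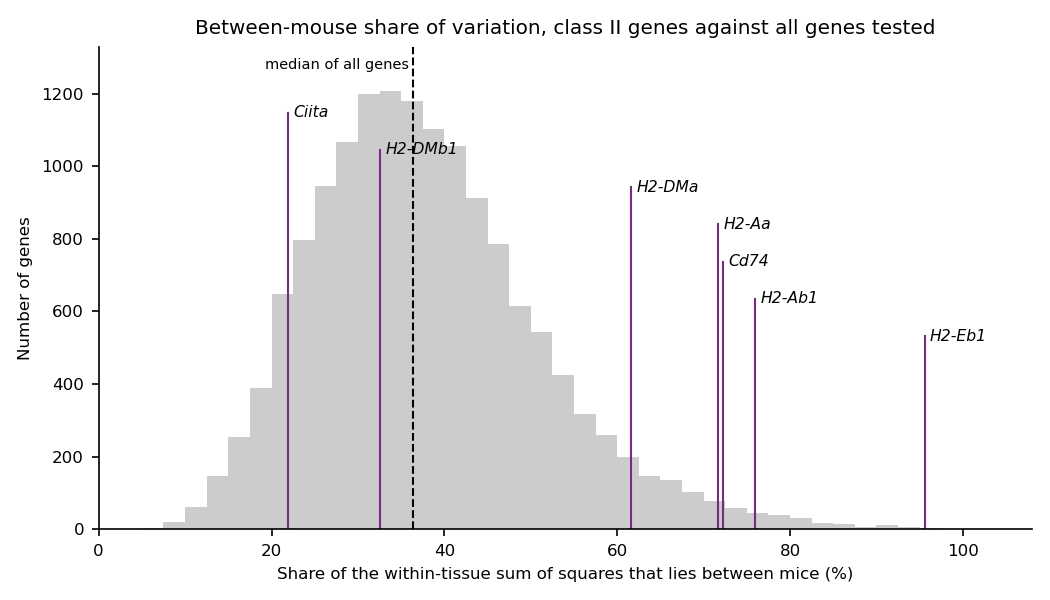
Grey bars count genes (y axis) by the between-mouse share of the within-tissue sum of squares in percent (x axis), with the 7 class II genes as purple lines and the median of all genes dashed. H2-Eb1 sits at 95.6%, 4 further genes lie between 61.6% and 76.0%, and H2-DMb1 and Ciita lie below the median of 36.4%; the heights of the purple lines carry no value.

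H2-Eb1 was nearly missing from all 3 tissues of 2 WT mice. WT mouse 7 had 3 counts in uterus, 4 in endometrium and 0 in myometrium, where a floor of 3 counts is 6.64 CPM. WT mouse 12 had 3, 2 and 4 counts. The 2 myometrium libraries of mouse 12 contributed 0 and 4 of these counts. Summed over tissues, mouse 7 had 3.06 CPM (exact 95% Poisson interval 1.23 to 6.30, counting error only) and mouse 12 had 3.58 CPM (1.64 to 6.80). The other 12 mice had 38.8 to 172 CPM. Against the median of all mice but itself, 84.1 CPM, mouse 7 had 0.0363 times that level (0.0146 to 0.0749) and mouse 12 had 0.0426 times (0.0195 to 0.0808). Neither mouse was at 3 or fewer counts in each tissue, since each had 4 counts in one. WT mouse 3 and KO mouse 4 came next, at 38.8 and 39.9 CPM, with no value between them and the low pair.

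The same libraries had ample RNA of H2-Ab1, Cd74, H2-Aa and H2-DMa. Summed over tissues, H2-Ab1 was 437 CPM in mouse 7 and 649.6 CPM in mouse 12, which was 1.34 (1.26 to 1.43) and 2.00 (1.90 to 2.10) times the median of the other mice. Cd74 was 559 CPM in mouse 7 and 899 CPM in mouse 12. H2-Aa was 122 and 148 CPM, and H2-DMa 33.2 and 30.6 CPM. H2-DMb1 was 6.99 and 14.3 CPM and Ciita 2.62 and 3.98 CPM, from 6 to 36 counts. Mice 7 and 12 were thus low in H2-Eb1 alone among the genes for chains, invariant chain and H2-DM alpha. Counted from the lowest mouse in uterus, endometrium and myometrium, mouse 7 ranked 2, 9 and 3 in H2-DMb1 and 2, 7 and 7 in Ciita. Mouse 12 ranked 14, 6 and 6 in H2-DMb1 and 4, 5 and 12 in Ciita. The leukocyte markers of mice 7 and 12 summed to 335 and 328 CPM in uterus, where the WT median was 311, and to 325 and 324 CPM in endometrium, where it was 320.4. In myometrium they summed to 193 and 131 CPM around a WT median of 142. The dendritic cell markers of mouse 7 summed to 15.5, 3.25 and 22.1 CPM in uterus, endometrium and myometrium. Those of mouse 12 summed to 21.9, 24.5 and 18.7 CPM, and the WT medians were 20.1, 11.7 and 18.0 CPM. All these dendritic cell sums rest on few counts.

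The counts of H2-Eb1 and H2-Ab1 set this out within each sample. In mouse 7, 3 counts of H2-Eb1 stood against 641 of H2-Ab1 in uterus, 4 against 232 in endometrium and 0 against 127 in myometrium. In mouse 12 it was 3 against 626, 2 against 727 and 4 against 280. In both mice H2-Eb1 was thus a small remainder beside H2-Ab1 in every tissue. Over all mice the ratio of H2-Eb1 to H2-Ab1 counts had medians of 0.224 in uterus, 0.198 in endometrium and 0.242 in myometrium. It was highest in WT mouse 5, at 1.65 in endometrium and 0.593 in myometrium, where H2-Ab1 was low and H2-Eb1 was 93.3 and 65.7 CPM. In uterus it was highest in KO mouse 11, at 0.486.

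**Figure D3:**
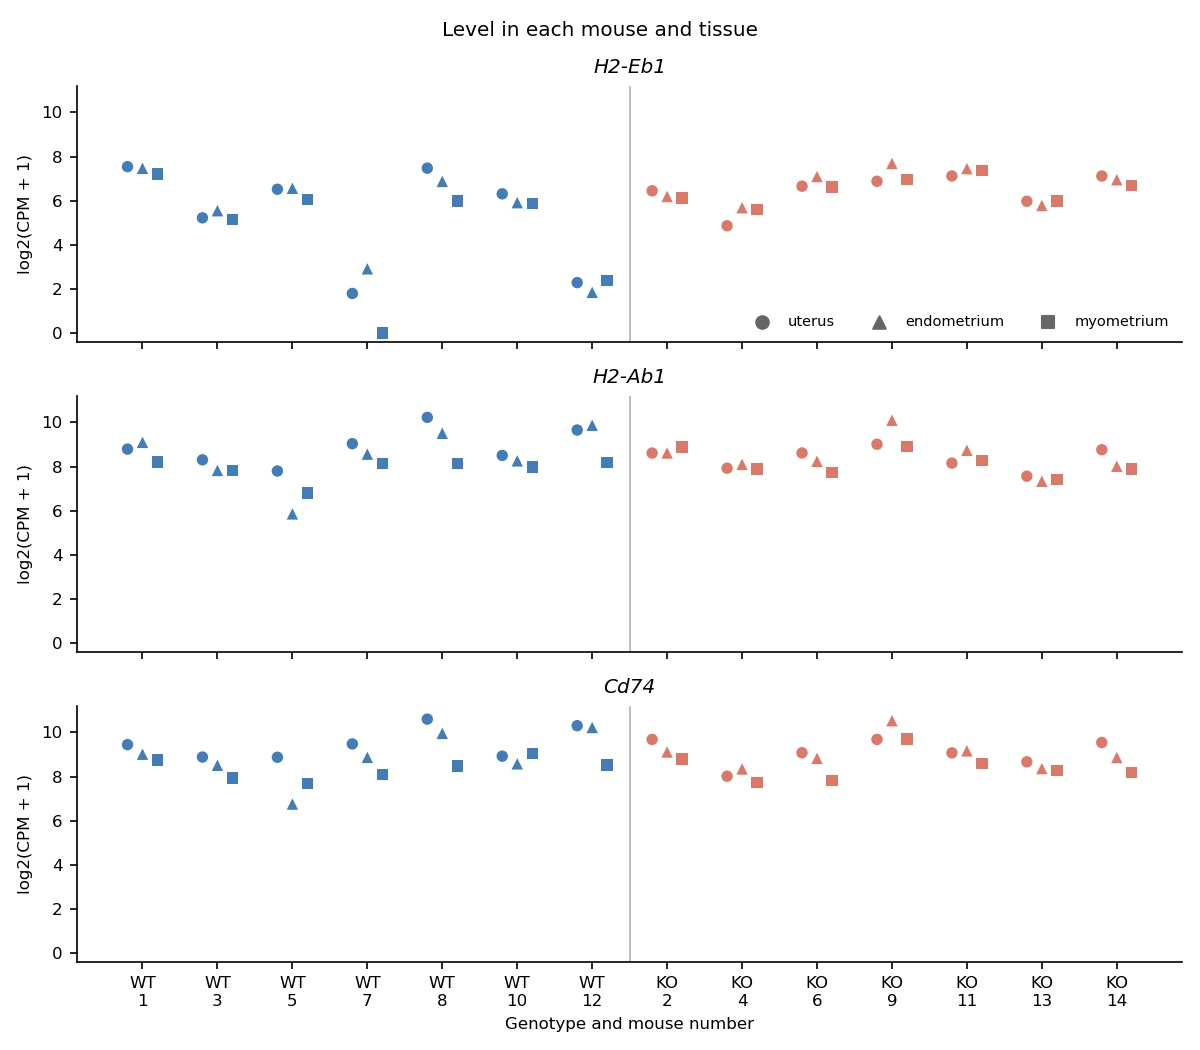
Levels in log2(CPM + 1) of H2-Eb1, H2-Ab1 and Cd74 are plotted for each mouse (x axis, WT in blue on the left, Plag1KO in red on the right), with a circle for uterus, a triangle for endometrium and a square for myometrium. The 3 symbols of WT mice 7 and 12 fall far below the rest for H2-Eb1 and sit among the other mice for H2-Ab1 and Cd74.

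**Figure D4:**
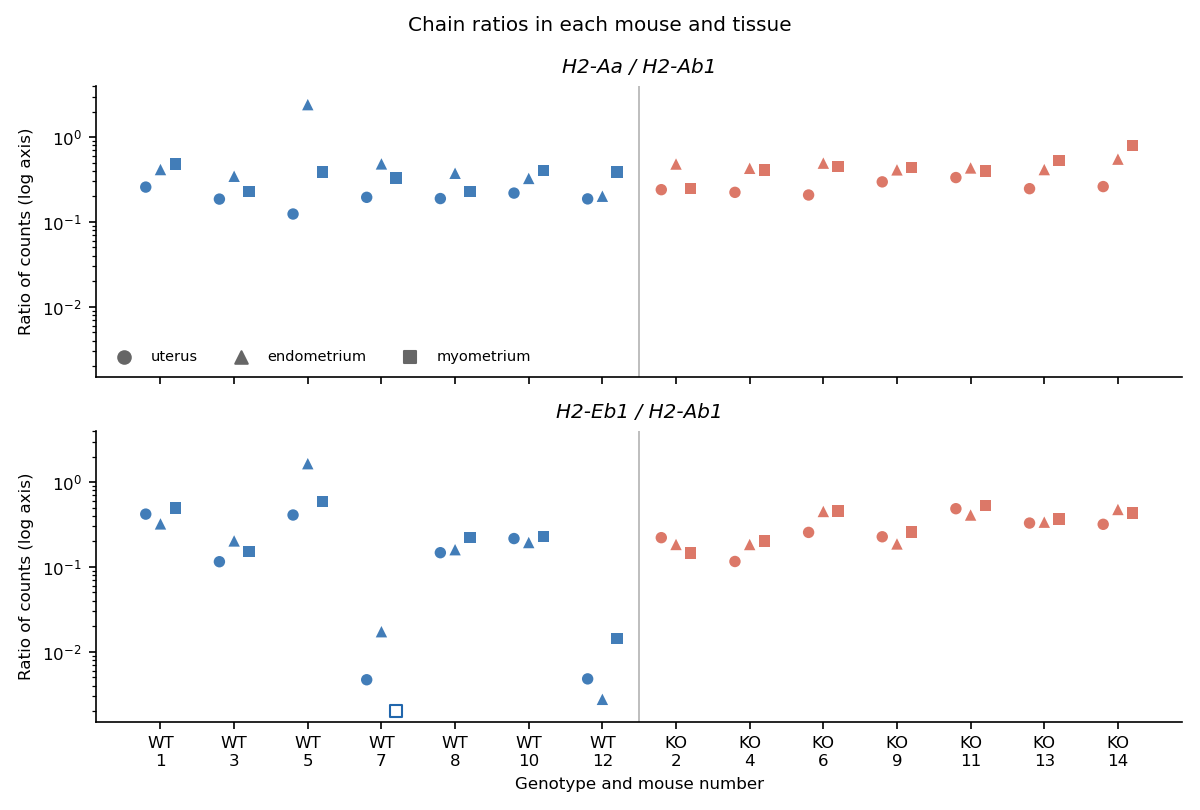
Count ratios of H2-Aa and H2-Eb1 to H2-Ab1 are plotted on a log axis for each mouse and tissue, with colours and symbols for genotype and tissue as labelled and an open square for the ratio of 0 in the myometrium of mouse 7, which a log axis cannot place. Uterus lies below endometrium in all 14 mice in the upper panel, and mice 7 and 12 lie apart in the lower panel.

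A deviation was called mouse-wide when a mouse was among the 2 lowest or 2 highest of 14 in each tissue. By this rule H2-Eb1 was low in mice 7 and 12 and high in mouse 1 (172 CPM, 2.24 times the median of the other mice). H2-Ab1 was low in WT mouse 5 and KO mouse 13, Cd74 was low in KO mouse 4, and H2-Aa was high in KO mouse 9. H2-DMa, H2-DMb1 and Ciita had no such mouse. Among 6697 genes with a mean of 10 CPM or more, 8.93% had a mouse-wide low and 9.86% a mouse-wide high mouse, and 0.538% had 2 low mice, as H2-Eb1 and H2-Ab1 did. Over all 14822 genes, many of them with few counts, the shares with a low and a high mouse were 29.0% and 10.3%. Mice 7 and 12 were the low pair in 2 of the 6697 genes, H2-Eb1 and Nupr1. For Nupr1, a stress-response gene, the next mouse was as close as 1.04 times in a tissue, and for H2-Eb1 it was at least 7.02 times higher in each.

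A level 10 or more times below the median mouse in all 3 tissues was rare. It occurred in some mouse for 32 of the 6697 genes (0.478%) and in 2 or more mice for 9 (0.134%). These were H2-Eb1, Aqp8, BC048679, Ces2b, Gzmd, Kap, Pinlyp, Retnlg and Tmem45b, named after their values were seen. For H2-Eb1 the mice were 7 and 12. No other gene of the 9 had this pair.

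Genes outside the set that varied with it across samples were ranked by likeness. The measure was Pearson r over 42 samples, in log2(CPM + 1) minus group means, with the mean of the standardised class II genes. The highest were C1qa (0.82), a complement component of macrophages, and Ctss (0.81), the cathepsin that trims Cd74 in antigen-presenting cells. Il17rb, Irg1 and Zfyve21 followed at 0.72 each. The macrophage markers C1qb and C1qc were not among the 10 highest genes, the last of which was at 0.69. The median over 6691 genes was 0.07, and the macrophage receptor Csf1r was at 0.17. The leukocyte markers Coro1a (0.62), Cd52 (0.53) and Laptm5 (0.41) were above that median and Ptprc (-0.04) was below it. These markers were named after their values were seen. The samples share mice, tissues and depth, and no test was made.

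Genotype was compared with the edgeR quasi-likelihood F test over all genes, with the mouse as the replicate. None of the 7 genes passed the threshold in any tissue. In uterus 0 of 12959 genes passed an adjusted p of 0.05 (0%), 731 had an unadjusted p under 0.05 (5.64%) and DESeq2 called 7 genes, none of them a class II gene. H2-Ab1 was the only class II gene of uterus with an unadjusted p under 0.05, at a log2 fold change of -0.64 ± 0.30 (95% interval -1.23 to -0.05, adjusted p = 0.863 in edgeR). Its WT and KO values overlapped, as given above, and it was -0.31 ± 0.26 without WT mouse 8, the highest in H2-Ab1. It was -0.57 ± 0.45 among mice 1 to 8 and -0.73 ± 0.43 among mice 9 to 14, which lay in separate plate rows. Cd74 was at -0.42 ± 0.28 (edgeR adjusted p = 0.920) and Ciita at 0.92 ± 0.57 (edgeR adjusted p = 0.900).

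In endometrium 0 of 13004 genes passed (0%), 676 had an unadjusted p under 0.05 (5.20%) and DESeq2 called 1, no class II gene. None of the 7 had an unadjusted p under 0.05, with H2-Eb1 at 0.90 ± 0.51 (-0.10 to 1.91, edgeR adjusted p = 0.959) and H2-DMa at 0.48 ± 0.29 (-0.08 to 1.04, edgeR adjusted p = 0.959). In myometrium 0 of 12991 genes passed in edgeR and 0 in DESeq2, and 548 had an unadjusted p under 0.05 (4.22%). H2-Aa was among the latter, at 0.62 ± 0.25 (0.13 to 1.10, adjusted p = 1.00 in edgeR), and its WT and KO values overlapped. Among mice 1 to 8 and among mice 9 to 14 it was 0.38 ± 0.33 and 0.62 ± 0.36. H2-Eb1 was at 0.85 ± 0.45 (-0.04 to 1.74) in myometrium, where the 2 near-missing WT mice enter the WT mean. The 7 log2 fold changes were above 0 in 2 genes in uterus, 5 in endometrium and 7 in myometrium, with medians of -0.25, 0.20 and 0.31 against -0.05, 0.02 and -0.03 over all genes.

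Adding the 3 tissues of a mouse gave the same outcome. Of 13100 genes 0 passed in edgeR (0%) and 0 in DESeq2, 761 had an unadjusted p under 0.05 (5.81%), and none of the 7 was among these. H2-Eb1 was 3.06 to 172 CPM in WT and 39.9 to 160.0 CPM in KO mice, a log2 fold change of 0.57 ± 0.58 (-0.57 to 1.71, edgeR adjusted p = 0.948). It was -0.04 ± 0.73 among mice 1 to 8 (5 WT, WT mouse 7 included, and 3 KO) and 1.82 ± 0.82 among mice 9 to 14 (2 WT, WT mouse 12 included, and 4 KO). With the tissues fitted apart and the mouse as a random block in limma, H2-Eb1 was at 1.54 ± 0.43 (limma adjusted p = 0.203), the smallest adjusted p of any of the 7 genes under any alternative run. That fit gave every gene the same within-mouse correlation, 0.054, whereas 95.6% of the within-tissue sum of squares of H2-Eb1 lay between mice. It counted the tissues of a mouse as nearly independent, so its error and p for H2-Eb1 are too small. In the edgeR fit of summed tissues, H2-DMb1 was at 0.07 ± 0.25 and Cd74 at -0.17 ± 0.27. Their intervals ran from -0.42 to 0.55 and from -0.69 to 0.36. For Ciita the interval was -0.11 to 1.06 and for H2-Ab1 -0.84 to 0.35. Differences inside these intervals were not excluded with 7 mice per genotype.

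**Figure D5:**
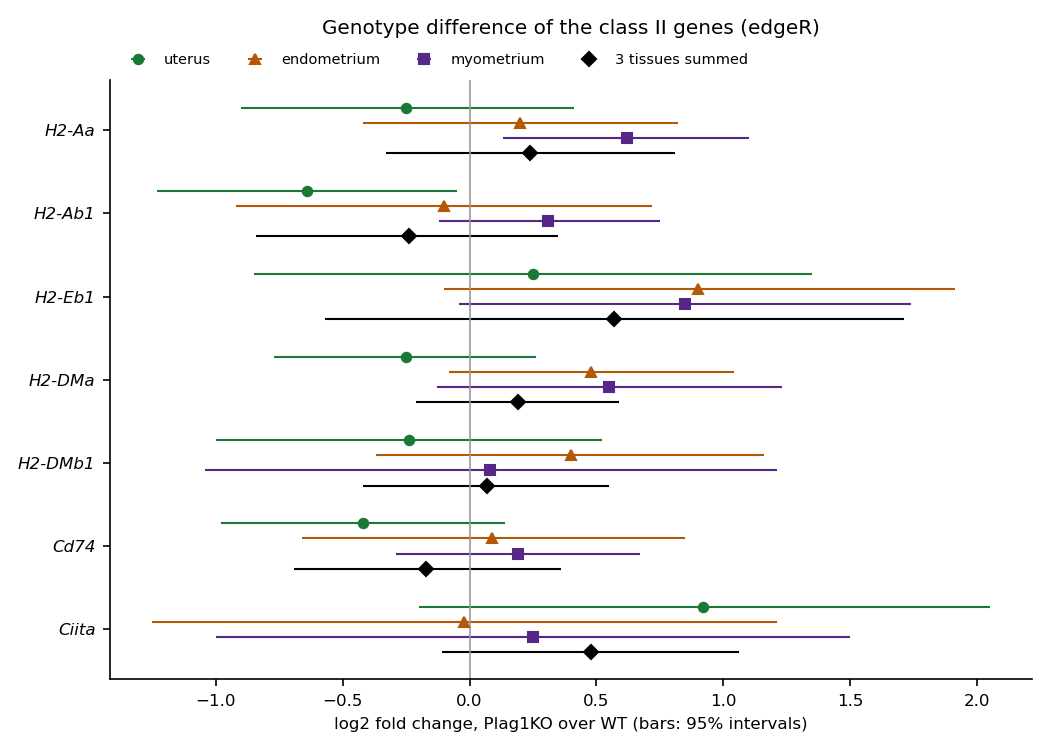
Points are edgeR log2 fold changes of Plag1KO over WT for each class II gene (y axis) in uterus, endometrium, myometrium and the 3 tissues summed, and bars are 95% intervals. Most bars cross 0, the exceptions being H2-Ab1 in uterus and H2-Aa in myometrium, neither of which passed the adjustment over all genes.

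The genotype difference was also compared between the layers. In the genotype by layer interaction 0 of 14314 genes passed in edgeR (0%) and 658 had an unadjusted p under 0.05 (4.60%), none of them a class II gene. The interaction was 0.07 ± 0.77 for H2-Eb1 and -0.41 ± 0.42 for H2-Aa (edgeR adjusted p = 1.00 and 0.997). Both errors leave out that the layers came from the same mice. A fit with a replicate block for the mouse gave -0.06 ± 0.38 for H2-Eb1 and -0.48 ± 0.35 for H2-Aa. It called 10 genes, and 0 of the 7.

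The other genes of the pathway gave no call either. With the tissues summed, 0 of 3 measured other class II genes, 0 of 9 regulators, 0 of 7 processing, 0 of 9 class I and 0 of 6 interferon gamma genes passed in edgeR. H2-Oa, a chain of the H2-DO modulator of peptide loading, was at -0.20 ± 0.43. Ctsb was at 0.43 ± 0.17 (edgeR adjusted p = 0.785) and B2m at 0.50 ± 0.27 (edgeR adjusted p = 0.841). Macrophage markers were above 0 in 8 of 8 genes (median 0.20) and leukocyte markers in 2 of 5 (median -0.06), with 0 called. B cell markers had a median of 1.12 over 3 measured genes, each with few counts, and 0 called.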

How the data were processed

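STRT RNA-seq reads the 5′ ends of polyadenylated transcripts. Each sample gave 10 ng of RNA to a single pooled library with ERCC spike-ins, and the authors deposited raw counts per gene for the mm9 build. The methods name TopHat and Homer over UCSC gene models, and the submitters' processing notes name HTSeq; which made the deposited counts was not settled. All reads were aligned to 1 reference genome, and the MHC haplotypes of the mice were not given in the sources used here. Libraries were grouped by the tissue, genotype and mouse in their labels. The 3 endometrium libraries of mouse 13 and the 2 myometrium libraries of mouse 12 were summed. The series' design text states 1 mouse more per genotype than the labels give, and whether such a library came from another mouse was not settled. Nothing in the labels gives the litter of a mouse, so p-values of the genotype comparisons measure the spread between these mice. Exceptions are the limma fit, with the same within-mouse correlation for every gene, and the interaction fit without a mouse block.

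A gene was tested where 5 or more samples of the fit reached 1 CPM, by edgeR 4.0.16 in R 4.3.3 (TMM factors, quasi-likelihood F test, Benjamini-Hochberg adjustment over all genes tested, threshold 0.05), without covariates. Standard errors are the log2 fold change divided by the root of F, and 95% intervals are normal. Alternatives were spike-in scaling, DESeq2 1.42.0, relative log expression factors, other filters (none, or 10 CPM), the first library of a mouse, plate rows as a covariate or apart, left-out mice and a mouse block (limma 3.58.1 with voom). The mouse number pairs the tissues of an animal, and the consensus correlation within mice was 0.054. Log levels used a pseudocount of 1 CPM. Scripts were tested on simulated data. The 7 genes, the gene lists and the likeness rule were chosen with earlier results of these data known. The 7 genes were named always, and from each list up to 3 of the highest mean CPM, with the 5 genes highest in likeness. Genes named outside this rule, such as H2-D1, Gapdh, Cd200, Nupr1, Csf1r and Ptprc, were chosen after their values were seen. Gene positions are from GENCODE on NCBIM37, and promoter sequences from RefSeq on GRCm38.p6. A result for 1 marker gene is not reported here.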

Additional observations from a re-analysis of the deposited data

Results flagged for a closer look

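Within each gene and group of 7 mice, the highest or lowest mouse was marked where its gap to the nearest mouse was a large part of the whole range by Dixon's 95% limit. This marked 3 of 42 groups, and chance marks about 5% of groups. H2-Ab1 in WT myometrium was marked for mouse 5, the lowest at 6.80 on the log2(CPM + 1) scale (59 counts, 111 CPM), against 7.83 in the next mouse. Mouse 5 was also the lowest of 14 for H2-Ab1 and Cd74 in endometrium. Cd74 in KO endometrium was marked for mouse 9, the highest at 10.53 (680 counts, 1480 CPM), against 9.16 in the next mouse, and the leukocyte and macrophage markers of that sample summed to 483 and 951 CPM. Ciita in KO myometrium was marked for mouse 13, the lowest at 0.00 (0 counts) against 2.10 in the next mouse, a difference of a few counts. H2-Eb1 in WT mice was not marked in any tissue, since mice 7 and 12 lay low together.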

How the results depend on the processing

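Under every alternative run, 0 of the class II genes tested passed the threshold in any genotype comparison or in the interaction. The 10 CPM filter left out Ciita, and in myometrium also H2-DMb1. Ciita was not tested in myometrium within rows D to F, and DESeq2 gave it no adjusted p in uterus. Of 302 log2 fold changes recomputed, 276 kept their direction and 26 turned. With spike-in scaling H2-Eb1 in uterus was -0.03, Ciita in endometrium 0.17, Cd74 in myometrium -0.01 and H2-DMb1 with tissues summed -0.02, and the interactions of H2-DMa and Cd74 were 0.19 and 0.09. That scaling moved the median of all genes from -0.05 to -0.37 in uterus and from 0.02 to 0.27 in endometrium. Within plate rows A to C, H2-Eb1 was -0.34 in uterus and -0.04 summed, H2-Aa -0.05 in endometrium, H2-DMa -0.15 in myometrium and -0.17 summed, H2-DMb1 -0.59 in myometrium and -0.06 summed, and Cd74 -0.05 in myometrium. In endometrium Cd74 was -0.18 and Ciita 0.87 within rows D to F, Cd74 was -0.07 with plate rows as a covariate, and Ciita was 0.01 with the first library of a mouse. In endometrium only mice 5, 9 and 13 were left out, each in turn. Over these fits values ran for H2-Aa from -0.11 to 0.34 and for H2-Ab1 from -0.47 to 0.03. Leaving out mice gave H2-Aa in uterus 0.06 without WT mouse 8, H2-Ab1 in endometrium 0.03 without KO mouse 13, Cd74 in endometrium -0.10 without WT mouse 5 and -0.23 without KO mouse 9, H2-Aa in endometrium -0.11 without KO mouse 9, and the Cd74 interaction 0.00 without KO mouse 13. The cause of these turns was not tested. Leaving out mice 5, 8 and 9 was chosen after seeing the data.

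With the mouse as a replicate block, which pairs the tissues of an animal, the interaction was -0.06 for H2-Eb1 and 0.16 for Cd74, and the median layer difference of the 7 genes was 0.47. That median was 0.41 in KO alone, 0.63 in WT alone and 0.95 with spike-in scaling, where the median of all genes was 0.39. The smallest adjusted p over the alternatives was 0.293 in uterus, 0.739 in endometrium, 0.672 in myometrium, 0.203 summed and 0.943 for the interaction. The 0.203 came from the limma fit of H2-Eb1, whose error is too small, as given above. Depth limits Ciita and myometrial H2-DMb1, plate row cannot be told apart from tissue, and mice 1 to 8 (5 WT, 3 KO) and 9 to 14 (2 WT, 4 KO) were in separate plate rows.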

Other observations

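The gene for the I-E alpha chain, the partner of the H2-Eb1 product, is annotated in this reference as the pseudogene H2-Ea-ps (chr17:34478897-34481589, minus strand). Its counts, summed over the tissues of a mouse, were 21 in KO mouse 13, 13 in WT mouse 3, 5 in WT mouse 5, 4 in WT mouse 12 and 3 in KO mouse 2. Mice 8 and 9 had 2 each and the other 7 mice had 0. WT mice 7 and 12, low in H2-Eb1, thus had 0 and 4 counts. In the endometrium of mouse 13 it had 17 counts.

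H2-Oa, a chain of the H2-DO molecule, had medians of 6.35 CPM in WT and 6.72 CPM in KO uterus, 7.80 and 2.79 CPM in endometrium and 2.00 and 1.45 CPM in myometrium, with 3 or fewer counts in 5 of 14 uterus, 7 of 14 endometrium and 11 of 14 myometrium samples.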
